A study of Homo sapiens with 6 samples.

Results

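Fatty acid synthesis, elongation and desaturation were followed through 9 genes, taken by symbol from the deposited table. They were ACLY, ACACA, FASN, SCD, FADS1, FADS2, ELOVL5, ELOVL6 and SREBF1, and all 9 were among its 11911 genes. The RNA came from RS4;11, a human leukemia cell line of B-lymphoid precursors that carries the KMT2A::AFF1 fusion. Of 6 RNA-seq libraries, 3 are labelled as having asparagine and 3 as lacking it, the latter taken 16 hours after the amino acid was removed and called depleted here. For all samples alike, a medium lacking asparagine with dialyzed serum is entered, and how asparagine reached the first group is not stated. The columns are named Ctrl_unt for the libraries with asparagine and Ctrl_aspg for the depleted ones, names that the labels do not explain. Whether aspg stands for withdrawal of asparagine or for the enzyme asparaginase cannot be told from them. Nothing says that the libraries of a group were separate cultures of the line, and the p-values then measure the spread between libraries only, which may be technical.

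Fatty acids are built in the cytosol from citrate that leaves the mitochondrion. ATP citrate lyase (ACLY) splits it into acetyl-CoA, acetyl-CoA carboxylase 1 (ACACA) makes malonyl-CoA, and fatty acid synthase (FASN) joins these units with NADPH into the saturated fatty acid palmitate. ELOVL6 lengthens palmitate to stearate, SCD puts the first double bond into such saturated chains, and FADS2, ELOVL5 and FADS1 act in turn on the polyunsaturated fatty acids taken from the diet or serum. SREBP-1, encoded by SREBF1, is a membrane-bound transcription factor that is released by cleavage and induces most of these genes. Growing leukemia cells use the products mainly for membranes.

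Of the 9 genes, 7 fell, 1 rose and 1 did not pass the test (limma, Benjamini-Hochberg adjusted p under 0.05 over all 11892 genes tested). Over all genes tested, 26.2% were called lower and 25.1% higher, 51.3% in all. The 7 were ACLY, ACACA, FASN, SCD, FADS1, FADS2 and SREBF1, the 1 that rose was ELOVL6, and ELOVL5 did not pass. Of these 7, all but FADS1 and SREBF1, 5 in number, were more than 2-fold lower by the group means, a size that 11.8% of all genes tested reached with a call. In the same 7 every depleted library lay below every library with asparagine, as in 30.8% of all genes, and in ELOVL6 every one lay above, as in 30.2%. The median log2 fold change of the 9 was -1.23, against 0.01 for all genes. Summed over the 9 genes, the normalized CPM (a signal scaled by the authors, by a method not stated) went from 3949 ± 219 to 1513 ± 91.0 (mean ± SD, n = 3). The depleted sum is 38.3% of the level with asparagine, and this share rests on the authors' scaling. Total CPM over the genes in the table was lower in every depleted library than in every library with asparagine. With each library rescaled to the same total, the median log2 fold change was -1.09 for the 9 and 0.14 for all genes. In bulk RNA, fewer cells that express a gene and less of its RNA per cell cannot be told apart.

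Reads recovered from the step between values came to 29971364 to 51127073 per library over the genes in the table. No value of the 9 genes rested on fewer than 2544 such reads. The table held too few low values to check these counts. The libraries without asparagine were uneven: number 1 differed from numbers 2 and 3, with correlations across genes of 0.94 and 0.933 against 0.9963 between the other two. All 17 B-cell precursor markers looked up were in the table, with a summed CPM of 5728 to 6160 with asparagine and 4426 to 5592 without it. They moved both ways: mean CPM went from 1004 to 1333 for PAX5 and from 267 to 362 for EBF1, and from 854 to 256 for IGLL1, from 438 to 120.4 for VPREB1 and from 1200.3 to 659 for TCF3. None of the 7 T cell, 5 erythroid, 6 adipocyte and 5 hepatocyte markers was in it. Of 7 myeloid markers CSF1R and ITGAM were present, summing to 32.1 to 33.3 CPM and 17.5 to 31.0 CPM, and of 8 epithelial and fibroblast markers COL1A1 alone, at 3.61 to 4.47 and 0.938 to 2.35 CPM. The part of these in the results was not tested.

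Promoter windows from RefSeq (build GRCh38.p14) were matched for 8 of the 9 genes, FASN being the other, in 12 windows of the 250 bases before an annotated start. The 4 stretches below are shown because the first 2 belong to genes that fell and hold a pair of CCAAT boxes, the third belongs to the regulator SREBF1, and the last to ELOVL6, the gene that rose. They are written 5′ to 3′ on the gene's strand, left short where GENCODE 29 places an exon, with CCAAT or its reverse ATTGG in capitals. SCD is at chr10:100346983-100347123 on the plus strand, ACLY at chr17:41919023-41919272, SREBF1 at chr17:17837003-17837236 and ELOVL6 at chr4:110198677-110198841, each of the last 3 on the minus strand. ACLY has several RefSeq starts, and the windows of ACLY and ELOVL6 lie inside the span that GENCODE 29 gives the gene.
SCD: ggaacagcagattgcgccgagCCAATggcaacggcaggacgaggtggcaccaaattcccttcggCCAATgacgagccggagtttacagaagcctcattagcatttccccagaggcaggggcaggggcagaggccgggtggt
ACLY: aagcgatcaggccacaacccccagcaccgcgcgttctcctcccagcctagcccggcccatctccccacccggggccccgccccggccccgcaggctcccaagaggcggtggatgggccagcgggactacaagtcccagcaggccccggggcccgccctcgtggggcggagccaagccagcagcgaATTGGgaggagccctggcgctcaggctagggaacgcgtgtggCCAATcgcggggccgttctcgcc
SREBF1: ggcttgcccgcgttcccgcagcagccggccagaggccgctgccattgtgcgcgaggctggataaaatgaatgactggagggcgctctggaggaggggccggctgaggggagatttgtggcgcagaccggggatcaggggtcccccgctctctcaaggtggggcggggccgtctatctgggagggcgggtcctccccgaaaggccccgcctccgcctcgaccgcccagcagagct
ELOVL6: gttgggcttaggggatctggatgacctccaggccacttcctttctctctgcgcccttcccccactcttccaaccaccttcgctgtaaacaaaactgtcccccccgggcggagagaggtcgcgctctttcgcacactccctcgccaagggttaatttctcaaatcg

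CCAAT is the core letters of the site of NF-Y, a factor that works beside SREBPs at many lipid genes. In SCD the boxes lay 229 to 225 and 186 to 182 bases before the start, and in ACLY 65 to 61 and 23 to 19 bases before it. Searched on both strands, CCAAT was found in the windows of 4 of the 8 genes: ACACA, ACLY, SCD and ELOVL5. ELOVL5, which did not pass the test, also held a pair, 122 to 118 and 68 to 64 bases before the start. SREBF1, FADS1 and FADS2 fell and held 0, as did ELOVL6. A link between these boxes and the changes was not tested. CCAAT was in 32.0% of all 35116 RefSeq windows of that length. A common form of the sterol regulatory element, TCACNCCAC, was in the windows of 0 of the 8 and in 0.883% of all windows. The core of the element that C/EBP and ATF factors bind, TGATGNAA, was also in 0 of the 8, against 3.14% of all windows. The E-box CACGTG was found for ELOVL5 alone, against 6.345% of all windows, and the GC box GGGCGG for 7 of the 8, against 42.6% of all windows. Among the 13073 windows of genes in the table, the shares were 63.3% for the GC box, 33.3% for CCAAT, 8.41% for the E-box, 0.872% for the sterol element and 1.64% for TGATGNAA. Genes with more windows had more chances of a match, and the absence of these letters from a window says nothing about the factor.

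Supply and condensation come first in the pathway, and all 3 of their genes fell. ACLY stood at 758, 773 and 725 CPM in libraries 1, 2 and 3 with asparagine and at 303, 262 and 258 in depleted libraries 1, 2 and 3. The depleted values lay far below the others and close to each other. ACLY (chromosome 17, 41866908 to 41930542 on GRCh38) was 2.74-fold lower, with -1.46 ± 0.11 on the log2 scale (fold change ± SE, limma adjusted p = 0.000269). ACACA stood at 171, 172 and 189 CPM with asparagine and at 73.4, 78.0 and 73.6 without it. Its depleted libraries differed little from one another. ACACA (chromosome 17, 37084988 to 37406818) had -1.23 ± 0.11 on the log2 scale (fold change ± SE, limma adjusted p = 0.000452).

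FASN, the synthase itself, had the lowest log2 fold change of the 9 in the deposited values, and SCD the lowest after a correction for GC content. It stood at 1442, 1341 and 1087 CPM with asparagine and at 285, 153 and 169 CPM in depleted libraries 1, 2 and 3. The groups did not overlap, but depleted library 1 kept more of the transcript than the other two. FASN (chromosome 17, 82078333 to 82098332) was 6.38-fold lower, with -2.71 ± 0.25 on the log2 scale (fold change ± SE, limma adjusted p = 0.000463), the 22nd lowest of the 11892 genes. Its share of the reads summed over the 9 genes went from between 29.3% and 34.97% per library to between 10.7% and 17.7%.

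Of the 3 desaturases among the 9 genes, SCD and FADS2 fell most. SCD, the stearoyl-CoA desaturase that makes oleate, stood at 282, 297 and 305 CPM with asparagine and at 72.4, 79.2 and 81.8 without it. All 3 depleted libraries were low to nearly the same degree. SCD (chromosome 10, 100347124 to 100364834) was 3.79-fold lower, with -1.91 ± 0.11 on the log2 scale (fold change ± SE, limma adjusted p = 0.000113). FADS2, the delta-6 desaturase, stood at 657, 647 and 607 CPM with asparagine and at 283, 196 and 208 without it. Depleted library 1 was again the highest of its group. FADS2 (chromosome 11, 61792980 to 61867354) was 2.78-fold lower, with -1.49 ± 0.16 on the log2 scale (fold change ± SE, limma adjusted p = 0.000752).

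FADS1, the delta-5 desaturase, fell less. It stood at 253, 254 and 255 CPM with asparagine and at 149.9, 157 and 161 CPM without it. The libraries within each group were nearly equal, and the groups lay well apart. FADS1 (chromosome 11, 61799625 to 61829318) was 1.63-fold lower, with -0.70 ± 0.10 on the log2 scale (fold change ± SE, limma adjusted p = 0.00214). FADS1 and FADS2 lie on opposite strands and share 490 exon bases in GENCODE 29, and with no strand setting stated for the counting, reads from that stretch cannot be assigned to either. FADS2 also shares 49 exon bases with FEN1, a replication gene on the same strand whose log2 fold change was -1.89.

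The elongases differed from each other, ELOVL6 being the 1 gene of the 9 that rose. ELOVL6 stood at 129.7, 122 and 145 CPM with asparagine and at 166, 245 and 261 CPM without it. Every depleted value was higher, with library 1 nearest to the cells with asparagine. ELOVL6 (chromosome 4, 110045846 to 110199199) rose 1.69-fold, with 0.73 ± 0.19 on the log2 scale (fold change ± SE, limma adjusted p = 0.0187). Leaving out library 1 or 2 with asparagine, or depleted library 2 or 3, ended that call, with log2 fold changes of 0.61 to 0.72 and limma adjusted p-values of 0.062 to 0.0767. Without depleted library 1 the change was 0.93.

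ELOVL5, which lengthens polyunsaturated chains, did not pass. It stood at 200.4, 202 and 212 CPM with asparagine and at 128, 177 and 204 CPM in depleted libraries 1, 2 and 3. Depleted library 1 was low, and depleted library 3 lay within the range of the cells with asparagine. ELOVL5 (chromosome 6, 53267398 to 53349179) had a log2 fold change of -0.30 (95% interval -0.73 to 0.13, limma adjusted p = 0.202), so a fall of over 1.5-fold is inside the interval. Fitted without depleted libraries 2 and 3, it was at -0.68 on the log2 scale (limma adjusted p = 0.00063), where the lone depleted library is assumed to vary like the others.

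SREBF1, the regulator, stood at 231, 212 and 178 CPM with asparagine and at 151, 86.1 and 78.3 CPM without it. The groups did not overlap, yet depleted library 1 lay nearer to library 3 with asparagine than to the other depleted libraries. SREBF1 (chromosome 17, 17810399 to 17837002) was 1.97-fold lower, with -1.02 ± 0.26 on the log2 scale (fold change ± SE, limma adjusted p = 0.0164). Without library 1 or 2 with asparagine, or without depleted library 2 or 3, it did not pass (limma adjusted p = 0.0502 to 0.0674, log2 fold changes of -1.004 to -0.85). The gene encodes the SREBP-1a and SREBP-1c forms, which a value per gene does not separate, and the RNA level says nothing of cleavage. It shares 556 exon bases with RAI1 on the other strand, which had a log2 fold change of -0.40 and did not pass (limma adjusted p = 0.163).

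**Figure D1:**
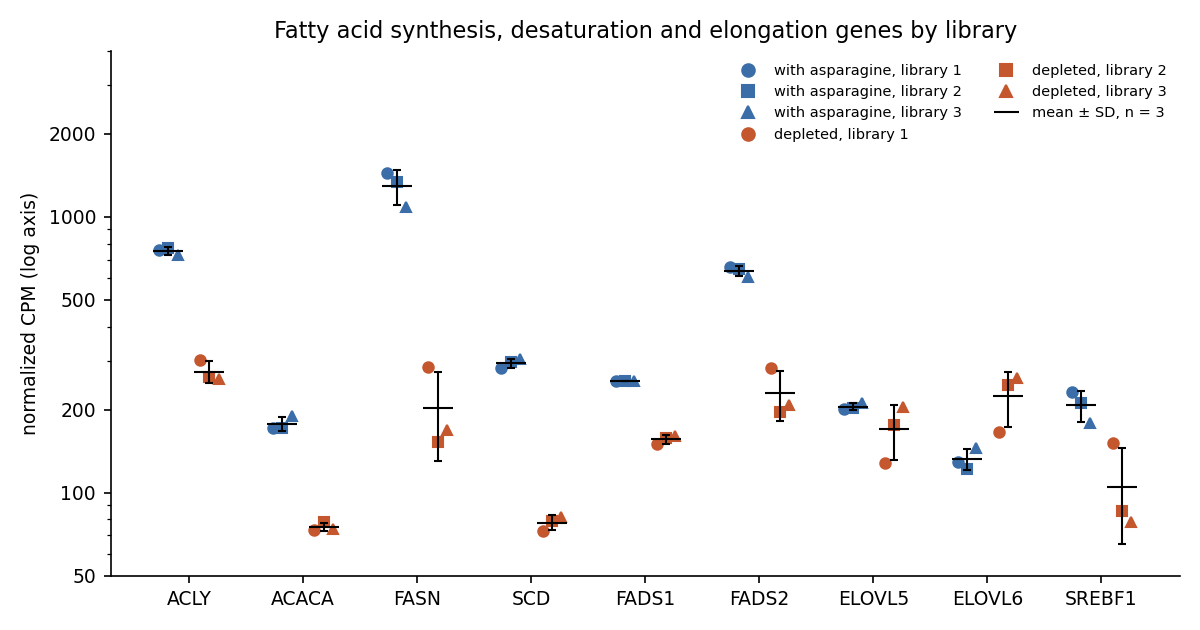
Normalized CPM on a log axis for each of the 9 genes in each library, with asparagine in blue and depleted in orange, circles, squares and triangles for libraries 1, 2 and 3, and black bars for mean ± SD (n = 3). FASN drops from 1087 or more to 285 or less, ELOVL6 alone lies higher in all depleted libraries, and depleted library 1 (circle) stands off from the other two in FASN, FADS2, ELOVL5, ELOVL6 and SREBF1.

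Depleted libraries differed from one another along the GC content of the transcripts, and this touched the genes unequally. With all genes in 5 classes by GC content, medians in the highest class were -0.09, -0.86 and -0.89 on the log2 scale in depleted libraries 1, 2 and 3, and those in the lowest class 0.03, 0.81 and 0.87, each against the mean of the libraries with asparagine. FASN and SREBF1 are in the highest class, where 46.0% of genes were called lower and 6.79% higher. ELOVL5 is in the lowest class, where 4.98% were lower and 37.9% higher. SCD and ELOVL6 share the second lowest, with 14.2% lower and 38.0% higher, so SCD fell in a class where more genes rose.

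After a lowess correction for GC content in each library, 7 of the 9 were again lower and 1 higher, with ELOVL5 in place of FADS1 among the 7. Over all genes with a GC value, 3894 were then lower and 3988 higher, against 2996 and 2814 of the same genes without the correction. FASN was then at -1.996 on the log2 scale (limma adjusted p = 1.39e-06), with depleted libraries 1, 2 and 3 at -2.06, -2.06 and -1.87. SCD had -2.07 (limma adjusted p = 2.27e-07), ACACA -1.29, ACLY -1.22 and FADS2 -1.18. SREBF1 was at -0.37 (limma adjusted p = 0.00133), with -0.35, -0.33 and -0.42 in the 3 depleted libraries. ELOVL5 passed at -0.78 (limma adjusted p = 7.97e-05), ELOVL6 stayed higher at 0.43 (limma adjusted p = 0.00204), and FADS1 missed at -0.36 (limma adjusted p = 0.0577). The value for FADS1 turned on the transcript used for its GC content. With the longest protein-coding transcript (50.1% GC in place of a median of 56.0% over its transcripts) FADS1 passed at -0.63 (limma adjusted p = 0.00014), ELOVL6 was at 0.29 and FADS2 at -0.92. Before correction, the median log2 fold change was 0.56 in the lowest GC class and -0.61 in the highest. A change with depletion that follows GC content is removed along with any technical trend, and the design cannot separate these. Corrected values need not be nearer to the truth than the deposited ones.

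**Figure D2:**
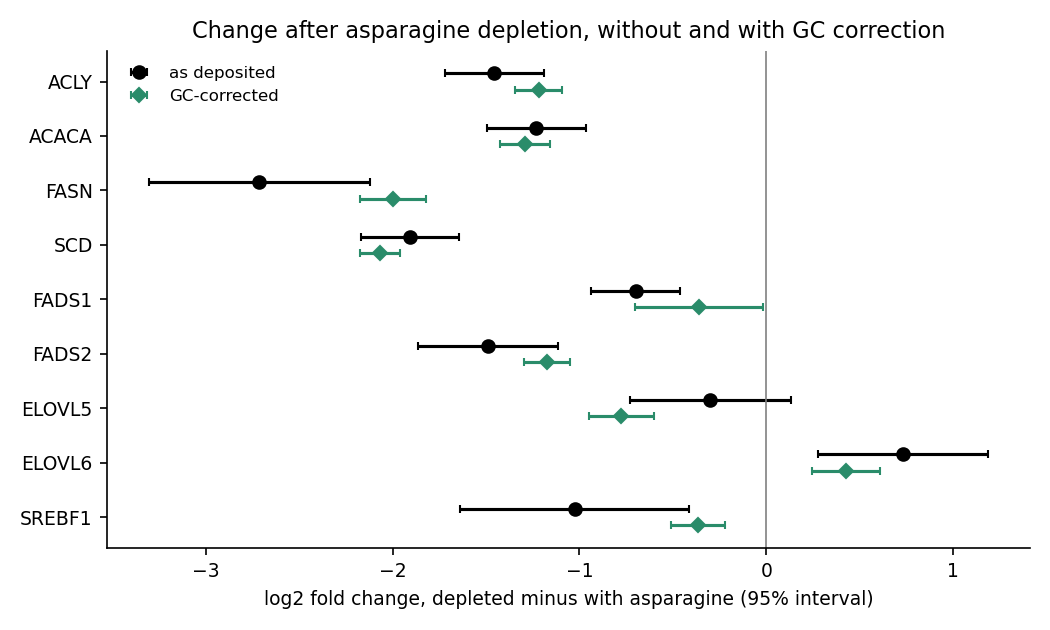
Log2 fold change (depleted minus with asparagine) with its 95% interval for each of the 9 genes, from the deposited values (black circles) and after the GC correction (green diamonds). ACLY, ACACA, FASN, SCD and FADS2 lie below 0 in both, ELOVL6 above 0 in both, ELOVL5 moves from -0.30 to -0.78, and SREBF1 moves from -1.02 to -0.37.

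Ratios of genes within a library do not depend on how libraries were scaled, so they show how the balance of the pathway moved. With 3 libraries against 3, an exact permutation test cannot go below p = 0.1, and the ratios are given as a description. CPM of FASN over CPM of SREBF1, both GC-rich, was 6.25, 6.32 and 6.09 with asparagine and 1.88, 1.77 and 2.16 without it. The synthase was 3.21-fold lower relative to the gene of its regulator, in all depleted libraries to a like degree. FASN over ACACA went from 8.44, 7.79 and 5.75 to 3.88, 1.96 and 2.30. These genes differ in GC content, and the gap between their log2 fold changes went from -1.48 to -0.70 with the GC correction. FADS2 over FADS1 went from 2.59, 2.55 and 2.38 to 1.89, 1.25 and 1.29, without overlap. The gap between their log2 fold changes was -0.789, and -0.815 with the GC correction. With the GC content of the longest transcript the genes lay closer, FADS2 at -0.92 and FADS1 at -0.63. Their 490 shared exon bases also enter this ratio. ELOVL6 over ELOVL5, both GC-poor, went from 0.647, 0.602 and 0.684 to 1.30, 1.39 and 1.28. This ratio of the elongases was 2.05-fold higher, with depleted library 1 inside the range of its group. ELOVL6 over SCD went from 0.449 ± 0.0345 to 2.86 ± 0.489, so the balance of the reads moved from the desaturase to the elongase. SCD over FASN overlapped between the groups, with 0.196, 0.221 and 0.280 against 0.254, 0.518 and 0.484, and the gap between their log2 fold changes went from 0.805 to -0.07 with the GC correction.

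**Figure D3:**
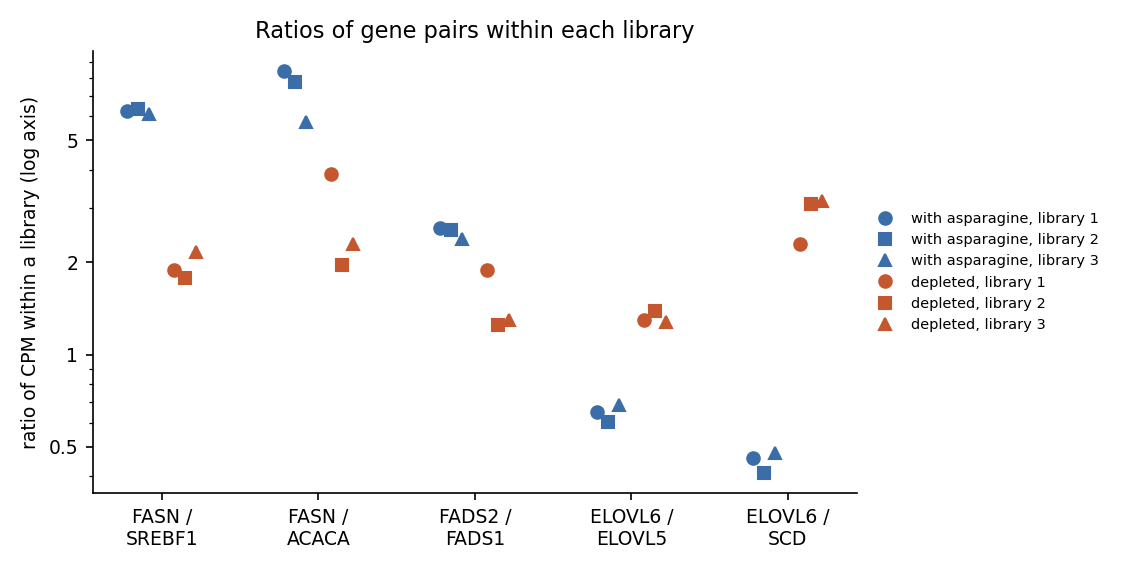
Ratio of the CPM of paired genes within each library on a log axis, with asparagine in blue and depleted in orange, circles, squares and triangles for libraries 1, 2 and 3. FASN over SREBF1 goes from at least 6.09 to at most 2.16, and ELOVL6 over ELOVL5 from at most 0.684 to at least 1.28. The pairs plotted are a choice and do not overlap between the groups. SCD over FASN, which overlaps, is not plotted, and the share of other gene pairs without overlap was not computed.

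Compared per kilobase of exon, the levels of the 9 genes changed order. Divided by the union of a gene's GENCODE 29 exons, ACLY (144 ± 4.74 CPM per kb) and FASN (138 ± 19.5) were the highest with asparagine and did not differ beyond their spread. FADS2 (57.8 ± 2.40), SCD (54.9 ± 2.14) and ELOVL5 (53.8 ± 1.66) followed, neighbours overlapping in mean ± SD. Then came SREBF1 (25.8 ± 3.30), FADS1 (24.8 ± 0.0756), ELOVL6 (18.1 ± 1.63) and ACACA (13.6 ± 0.786). In depleted cells ACLY (52.5 ± 4.78) and ELOVL5 (44.5 ± 10.1) were the highest and overlapped in spread, and ELOVL6 came next at 30.7 ± 6.93. FASN (21.6 ± 7.68) and FADS2 (20.8 ± 4.28) were then alike, ahead of FADS1 (15.2 ± 0.537), SCD (14.5 ± 0.907), SREBF1 (13.1 ± 4.98) and ACACA (5.77 ± 0.198). Per kilobase of the longest protein-coding transcript, FADS2 came level with ACLY with asparagine (175 ± 7.30 and 173 ± 5.69), so the order depends on the gene model.

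Of 10 genes tested that feed the pathway with acetyl-CoA and NADPH, 7 were lower, 1 was higher and 2 did not pass. Over all genes, 26.2% were lower and 25.1% higher. The median log2 fold change of the 10 was -0.95, and -0.72 after the GC correction. With that correction 7 were again lower and 1 higher, beside 3894 and 3988 over all genes with a GC value. TKT, the transketolase of the pentose phosphate pathway, fell 5.13-fold from 666 ± 40.3 to 129.8 ± 40.8 CPM, and TALDO1, the transaldolase beside it, fell 2.87-fold. SLC25A1, the carrier that exports citrate from the mitochondrion, fell 3.71-fold from 200.3 ± 14.9 to 54.0 ± 20.8 CPM. IDH1, the cytosolic isocitrate dehydrogenase that yields NADPH, went the other way, from 59.5 ± 2.70 to 181 ± 23.9 CPM (limma adjusted p = 0.00041). The mitochondrial pyruvate carrier genes MPC1 and MPC2 did not pass, at 0.35 and -0.15 on the log2 scale.

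Around the carboxylation step the changes were mixed, with 3 higher and 1 lower of 10 tested. Over all genes, 25.1% were higher and 26.2% lower. Without depleted library 1 there were 4 of each, beside 4812 higher and 4913 lower genes over the table. After the GC correction there were 3 of each, beside 3988 higher and 3894 lower. With all libraries and no correction, the 3 higher were among the 5 AMPK subunit genes tested. AMPK is the kinase that phosphorylates and inhibits acetyl-CoA carboxylases. PRKAG1 rose from 37.4 ± 3.33 to 63.9 ± 0.167 CPM and PRKAB2 from 14.4 ± 1.23 to 27.5 ± 7.60. PRKAA1 had 53.5, 42.2 and 62.3 CPM with asparagine and 61.7, 132 and 136 without it, so it passed although its groups overlap. The other two subunit genes did not pass, with PRKAG2 at -0.40 on the log2 scale (limma adjusted p = 0.0791, and 0.00132 at -0.58 after the GC correction) and PRKAB1 at 0.02. ACACB, the acetyl-CoA carboxylase of the mitochondrial surface, fell 1.45-fold. In the separate mitochondrial synthesis pathway, which makes the precursor of lipoic acid, 4 of 9 were lower and 2 higher (4 and 3 after the GC correction). NDUFAB1, its acyl carrier protein, fell 2.21-fold and MCAT, which loads it with malonate, 2.09-fold, while CBR4 rose 2.02-fold.

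Partners of the elongases and desaturases did not move as a block. Of 6 other elongation genes tested, 2 were lower and 0 higher by limma, beside 26.2% lower and 25.1% higher over all genes. At an unadjusted limma p under 0.05, 1 was higher, and with voom weights 0. Without depleted library 1, 3 were higher and 2 lower, beside 4812 and 4913 over all genes. TECR, the reductase of the last step of each elongation cycle, fell 2.53-fold, and ELOVL1, which lengthens saturated very long chains, 2.04-fold. Of 8 other desaturation genes, 4 were lower and 1 higher. After the GC correction there were 5 and 2, beside 3894 and 3988 over all genes with a GC value. SCD5, a second stearoyl-CoA desaturase, fell from 7.065 ± 0.399 to 2.33 ± 0.422 CPM, and CYB5A, the cytochrome b5 that hands electrons to desaturases, from 36.0 ± 0.819 to 13.3 ± 2.81. CYB5R3, which reduces cytochrome b5, fell 1.96-fold, while CYB5R4 rose 2.12-fold.

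Among 23 genes for SREBP processing and other lipogenic regulators, 6 were higher and 5 lower, close to the 25.1% and 26.2% of all genes. Without depleted library 1, 7 were higher and 12 lower, beside 4812 and 4913 over all genes. INSIG1, an SREBP target that holds the SREBP complex in the endoplasmic reticulum, fell from 442 ± 12.7 to 227 ± 25.4 CPM, and INSIG2, its relative, went from 13.0 ± 1.27 to 27.8 ± 10.2 (limma adjusted p = 0.0292). MBTPS2, the site-2 protease that completes SREBP cleavage, rose 2.16-fold, and PPARGC1B, a coactivator of SREBPs, fell 2.28-fold. SREBF2, which encodes the sterol-directed SREBP-2, stood at 851, 851 and 774 CPM with asparagine and at 834, 575 and 561 without it, and did not pass (log2 fold change -0.35, limma adjusted p = 0.124). Without depleted library 1 SREBF2 passed, at -0.54 on the log2 scale (limma adjusted p = 2.42e-05). The CPM ratio of SREBF1 over SREBF2 went from 0.2503 ± 0.0203 to 0.157 ± 0.0217. After the GC correction SREBF1 was at -0.37 and SREBF2 at 0.08 on the log2 scale. Of 11 sterol-pathway targets of SREBPs, 8 were lower and 0 higher (limma; 0 also at an unadjusted p under 0.05 and with voom weights), with a median log2 fold change of -1.09. FDPS, the farnesyl diphosphate synthase, fell 3.02-fold. DHCR7, LSS and MVD, enzymes of sterol synthesis, were at -2.24, -2.04 and -2.37 on the log2 scale, while IDI1 (-0.26) and STARD4 (0.34) did not pass. Of the 34 genes of these lists and of those for lipid assembly and oxidation that the naming rule took, 34 kept their direction and 33 passed after the GC correction, and in 18 the log2 fold change shrank by over 1.5 times, among them PRKAA1 (0.25), INSIG2 (0.30), MBTPS2 (0.40), CYB5R3 (-0.43) and MCAT (-0.57).

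**Figure D4:**
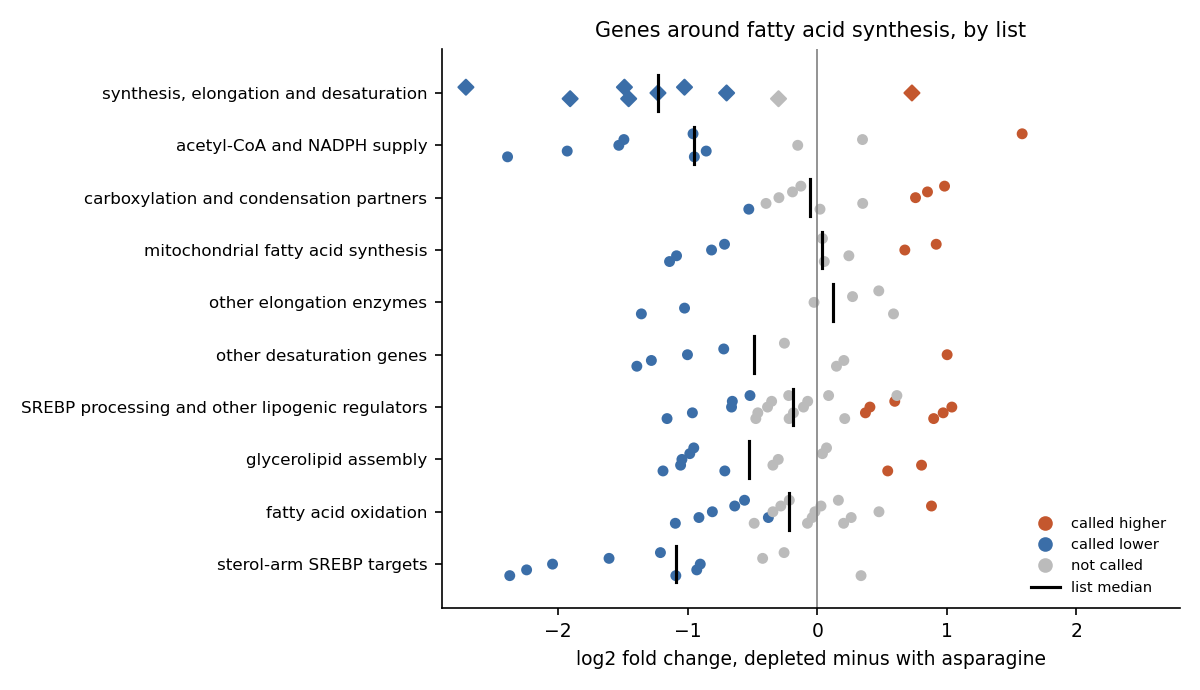
Log2 fold change (depleted minus with asparagine) of each tested gene in the lists around fatty acid synthesis, with genes called higher in orange, lower in blue and not called in grey, black bars at list medians and the 9 genes as diamonds in the top row. The 9 genes (median -1.23), the supply genes (-0.95) and the sterol targets (-1.09) have the lowest medians, and the other lists lie nearer to 0 with members on both sides.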

How the data were processed

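RNA of 6 RS4;11 samples was sequenced. The deposited values are normalized CPM, a signal scaled by the authors, with 11911 gene symbols in rows. STAR, featureCounts (Subread) and FastQC are named with GRCh38, per the submitters' processing notes. No source used here gives versions, annotation, strand setting, scaling method or filter. Columns were matched to samples by arm and replicate number. All values were whole multiples of 1 step per library within a tolerance of 1e-06 of a read. Taken as 1 read, that step gives 29971364 to 51127073 reads per library over the genes in the table. It gives 2544 to 54545 reads behind each value of the 9 genes. Counting error was not separated from the spread between libraries.

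The 11892 genes that reached 1 CPM in 3 or more libraries were fitted as log2(CPM + 1) with limma 3.58.1 in R 4.3.3, group as the only term, empirical Bayes with an intensity trend, two-sided, Benjamini-Hochberg threshold 0.05. A value written with "-fold" is a ratio of mean CPM. Log2 fold changes carry the added 1 CPM. The fit was tested on simulated data. There few genes changed and noise was independent between genes, unlike in these libraries, and no result rests on that test. GC content was the median over protein-coding transcripts of GENCODE 29 (95.4% of the genes had a value), and its trend was removed per library by lowess with span 0.3. Of each list, up to 4 called genes were named, by size of change among those whose higher group mean reached 5 CPM, and genes named beside these were chosen after their values were seen. Some genes of the lists are not reported by name here. The members and lists were chosen with earlier results of these data known. Alternatives were other pseudocounts, filters, scalings, moderation, the replicate block, GC correction, left-out libraries and a threshold of 0.01. Voom weights, the longest-transcript GC content, the fit to genes with a GC value alone and the GC correction without depleted library 1 were added after seeing the data.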

Additional observations from a re-analysis of the deposited data

How the results depend on the processing

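ACLY, ACACA, FASN, SCD and FADS2 were lower past the threshold under all 25 alternatives, with log2 fold changes of -1.53 to -1.18, -1.29 to -1.09, -2.99 to -1.96, -2.08 to -1.77 and -1.65 to -0.92. No gene of the 9 changed direction under any of them. SREBF1 ranged from -1.32 to -0.30 and ELOVL6 from 0.29 to 0.93, and each lost its call when any of 4 single libraries was left out and at a threshold of 0.01. FADS1 lost its call under the GC correction, and ELOVL5 gained one under each of 4 settings with a GC correction and without depleted libraries 2 and 3. The cause of these changes was not tested.

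Leaving out single libraries gave 1728 to 4812 higher and 1814 to 4913 lower genes over the table, against 2987 and 3116 with all. Depleted library 1 left out gave 4812 and 4913, depleted library 2 left out 1902 and 1975, and libraries 1 and 2 with asparagine, left out singly, 1756 and 1845, and 1728 and 1814. It gave 0 to 1 higher and 6 to 7 lower of the 9 genes, with a median log2 fold change of -1.32 to -1.18, and 6 to 30 higher and 30 to 61 lower of the 108 other pathway genes, against 16 and 43. Of the 42 called genes that the naming rule took, 9 to 13 lost their call without any single library other than depleted library 1, without which 0 did. At a threshold of 0.01, 1612 genes were higher and 1703 lower, with 0 of the 9 and 6 of the other pathway genes higher. The GC correction without depleted library 1, and that by the longest transcript, each gave 25 of the other pathway genes higher. The median of the 9 was -1.09 when each library was rescaled to the same total, which moved the median of all genes from 0.01 to 0.14, and -0.92 under the correction by the longest transcript. The planned count test was not run, since the table holds too few low values to check the recovered reads by.

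Same-numbered libraries showed no steady pairing: across genes, the deviations from the group means correlated at 0.083, -0.65 and 0.69 for numbers 1, 2 and 3. Depleted libraries 2 and 3 correlated alike with library 3 with asparagine, at 0.713 and 0.686. Such a check of 3 libraries per group cannot exclude pairing. Not every library correlated best with its own number. With the replicate block 2824 genes were higher and 2989 lower over the table, 7 of the 9 genes were lower and 1 higher, and no call among the 9 changed (for ELOVL6, limma adjusted p = 0.019).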

Other observations

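Genes that place fatty acids into glycerolipids were lower more often than higher. Of 12 tested, 6 were lower and 2 higher, against 26.2% and 25.1% of all genes. Their median log2 fold change was -0.53. With the GC correction 8 were lower and 2 higher, median -0.30, beside 3894 and 3988 over all genes with a GC value. DGAT1, which makes triacylglycerol, fell from 103.5 ± 9.95 to 46.6 ± 17.8 CPM, AGPAT2, which makes phosphatidic acid, from 112 ± 12.2 to 57.3 ± 27.1, and LPCAT1, a lysophospholipid acyltransferase gene, from 263 ± 11.3 to 127 ± 13.1. LPIN2, a phosphatidate phosphatase gene, rose from 103 ± 2.51 to 181 ± 15.004.

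Of 19 genes tested that burn fatty acids, 6 were lower and 1 higher, against the same shares over all genes. Their median log2 fold change was -0.22. After the GC correction 9 were lower and 3 higher, median -0.24, beside 3894 and 3988 over all genes with a GC value. Without depleted library 1, 10 were lower and 4 higher, beside 4913 and 4812 over all genes. ETFB, a subunit of the electron transfer flavoprotein, had 80.1, 87.8 and 79.0 CPM with asparagine and 70.4, 29.4 and 26.2 without it, so depleted library 1 lay near the cells with asparagine. ECHS1, an enoyl-CoA hydratase gene, fell 1.75-fold and ACADS, the short-chain acyl-CoA dehydrogenase gene, 1.78-fold. After the GC correction ECHS1 was at -0.29 on the log2 scale in place of -0.81, and ACADS did not pass, at -0.24 in place of -0.91 (limma adjusted p = 0.0528). CPT1A, which admits long chains to the mitochondrion and is inhibited by malonyl-CoA, fell from 96.1 ± 8.37 to 73.6 ± 4.004 CPM (limma adjusted p = 0.0394, and -0.16 on the log2 scale with adjusted p = 0.14 after the GC correction).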
